A study of Mus musculus with 16 samples.

Results

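The 41 genes described here are the cell cycle and DNA replication genes of the series, chosen by their symbols out of the 24411 genes of the exon count table, each with a read in 1 or more of the 16 libraries. They comprise 9 genes of the proliferating state and of entry into mitosis, 12 of the kinetochore, the spindle and mitotic exit, 10 that license and run the replication fork, 5 that make deoxynucleotides, and 5 cyclins and regulators of G1. The question was whether engrafted brain macrophages or host microglia were cycling months after bone marrow transfer, and whether a challenge with lipopolysaccharide (LPS), the endotoxin of gram-negative bacteria, changed these genes. Brains came from 8 WT C57BL/6J recipients carrying CD45.2, which were 6 weeks old at transplantation according to the methods. They were lethally irradiated with 950 cGy and given congenic WT marrow carrying CD45.1. The study places the harvest at 9 months, whereas the sample labels allow 3.5 or 9 months and assign neither to a library.

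From each brain, Ly6C/G-negative CD11b+ cells with low CD45.1 (engrafted cells, CD451 in the labels) and with low CD45.2 (host microglia, CD452) were sorted, about 10000 cells per library. In 4 mice both populations were taken 12 h after 2.5 mg/kg LPS, and the other 4 mice received no LPS, so that 4 groups of 4 libraries arose. Only the host cells had been through the irradiation, so population, origin and radiation exposure cannot be told apart. No vehicle injection of the controls is named in the sources used here, so the LPS effect may include that of the injection itself.

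Dividing cells pass through a G1 phase driven by D-type cyclins, license their origins with the MCM helicase, copy their DNA in S phase with freshly made deoxynucleotides, and separate the chromosomes under the mitotic kinases. Transcripts of the S phase set are made under E2F factors, and those of mitosis under the DREAM and MuvB complexes, which bind CHR elements, often near CCAAT boxes. Resident microglia are long-lived cells that divide rarely, and D-type cyclins are present in macrophages whether or not they divide.

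Libraries held between 395283 and 1203597 reads on genes, the shallowest being the engrafted library of LPS mouse 4. A count of 0 allowed up to 3 reads, equal to 2.39 to 8.41 CPM (counts per 1e6 after TMM scaling of the library), for counting error only. The labels of the populations were borne out by Sall1, a transcription factor of microglia, at 289 to 361 CPM in host against 3.37 to 25.2 CPM in engrafted control libraries, and by Ms4a7, a gene of marrow-derived brain macrophages, at 517 to 570 CPM in engrafted against 7.32 to 10.4 CPM in host control libraries. Replicate libraries of a group differed by 1.98 to 8.64 times the counting noise, so none was a copy of another. Because RNA of pooled cells was measured, a lower level can reflect fewer cells of a kind or less RNA per cell, which cannot be told apart.

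Promoter windows of 300 bases, from 250 before to 50 after the annotated start, were at hand for 32 of the 41 members (RefSeq, GRCm38.p6). Those printed were found by exact match in mm9, the build of the count table, and are given with mm9 positions, 5′ to 3′ on the strand of the gene. First come the 4 mitotic members whose reads are given in full below, with every CCAAT box (CCAAT) and CHR element (TTTGAA) on either strand in capitals.
Mki67, chr7:142908013-142908312, minus strand: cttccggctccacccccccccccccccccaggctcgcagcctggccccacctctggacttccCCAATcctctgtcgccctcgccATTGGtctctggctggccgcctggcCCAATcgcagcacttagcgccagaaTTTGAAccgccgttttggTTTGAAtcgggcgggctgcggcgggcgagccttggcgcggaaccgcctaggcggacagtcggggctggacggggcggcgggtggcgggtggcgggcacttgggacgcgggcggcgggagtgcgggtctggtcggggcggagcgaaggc
Top2a, chr11:98885454-98885753, minus strand: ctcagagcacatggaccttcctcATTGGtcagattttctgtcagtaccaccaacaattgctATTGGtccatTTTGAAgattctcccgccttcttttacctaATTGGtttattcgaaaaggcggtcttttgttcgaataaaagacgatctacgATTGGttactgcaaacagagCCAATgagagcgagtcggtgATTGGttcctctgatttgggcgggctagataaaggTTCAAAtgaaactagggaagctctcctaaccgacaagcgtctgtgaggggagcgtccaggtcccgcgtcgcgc
Ccnb2, chr9:70269312-70269611, minus strand: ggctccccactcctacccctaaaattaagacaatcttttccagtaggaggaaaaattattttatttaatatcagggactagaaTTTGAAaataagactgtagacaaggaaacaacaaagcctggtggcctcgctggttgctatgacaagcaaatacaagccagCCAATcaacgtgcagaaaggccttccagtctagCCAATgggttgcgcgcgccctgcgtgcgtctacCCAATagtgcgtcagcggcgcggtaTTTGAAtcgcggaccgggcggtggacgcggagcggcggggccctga
Ube2c, chr2:164595179-164595478, plus strand: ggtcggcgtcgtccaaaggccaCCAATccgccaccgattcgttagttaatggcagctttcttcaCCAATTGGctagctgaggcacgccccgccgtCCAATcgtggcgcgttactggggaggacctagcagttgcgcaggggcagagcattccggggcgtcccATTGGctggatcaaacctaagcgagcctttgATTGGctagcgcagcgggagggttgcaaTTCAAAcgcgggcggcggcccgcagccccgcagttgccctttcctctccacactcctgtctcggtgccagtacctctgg
A CHR element stood in 11 of the 16 windows of mitosis members (68.8%) against 17.9% of all 32851 windows, and a CCAAT box in 14 of 16 (87.5%) against 37.4%. In these 4 windows CCAAT boxes preceded a CHR element. Such matches describe the letters of the window and are no evidence of binding.

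Next come Mcm3, Mcm5 and Cdt1, which are among the replication members that changed with LPS, as described below. Capitals mark CCAAT boxes and the E2F motifs TTTGGCGC, TTTCGCGC, TTTCCCGC and TTTGCCGC, again on either strand.
Mcm3, chr1:20810344-20810643, minus strand: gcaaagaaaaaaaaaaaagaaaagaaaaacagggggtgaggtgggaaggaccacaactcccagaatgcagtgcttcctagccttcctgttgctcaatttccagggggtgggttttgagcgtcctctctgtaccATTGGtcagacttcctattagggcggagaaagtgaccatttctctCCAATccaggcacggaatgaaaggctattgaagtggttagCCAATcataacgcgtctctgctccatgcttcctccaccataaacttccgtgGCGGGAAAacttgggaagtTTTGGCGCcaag
Mcm5, chr8:77633158-77633457, plus strand: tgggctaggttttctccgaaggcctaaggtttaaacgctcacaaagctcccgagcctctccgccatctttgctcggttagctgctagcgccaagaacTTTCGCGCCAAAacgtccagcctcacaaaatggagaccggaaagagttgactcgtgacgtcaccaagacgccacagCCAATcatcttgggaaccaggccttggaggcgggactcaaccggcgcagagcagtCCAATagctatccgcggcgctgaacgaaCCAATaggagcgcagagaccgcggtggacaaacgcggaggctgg
Cdt1, chr8:125091665-125091964, plus strand: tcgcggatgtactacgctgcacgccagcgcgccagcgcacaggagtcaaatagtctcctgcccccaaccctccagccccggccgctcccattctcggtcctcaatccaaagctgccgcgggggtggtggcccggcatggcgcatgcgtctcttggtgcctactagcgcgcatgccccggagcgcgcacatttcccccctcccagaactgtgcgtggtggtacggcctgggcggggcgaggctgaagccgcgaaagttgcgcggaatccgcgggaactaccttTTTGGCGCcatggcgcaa
An E2F motif of this kind stood in 6 of the 9 windows of replication members (66.7%) against 2.26% of all windows. The window of Pcna, which also changed with LPS, is not printed and held 1 CCAAT box and 0 E2F motifs. The start of the Mcm3 window lay 99 bases before that of the gene model counted, and those of Mcm5 and Cdt1 coincided with it. In Mcm5 a TTTCGCGC and the reverse complement of TTTGGCGC overlapped by 4 bases. For Ccnd3, the 1 member called between the populations after LPS, the window at the start of the counted model held 1 CCAAT box, in capitals, and neither a CHR element nor an E2F motif.
Ccnd3, chr17:47730166-47730465, plus strand: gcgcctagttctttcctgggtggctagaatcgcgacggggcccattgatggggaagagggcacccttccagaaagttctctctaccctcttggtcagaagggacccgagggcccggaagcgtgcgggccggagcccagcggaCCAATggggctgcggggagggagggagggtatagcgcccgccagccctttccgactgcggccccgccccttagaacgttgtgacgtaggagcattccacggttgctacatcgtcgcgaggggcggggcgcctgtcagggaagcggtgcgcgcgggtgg

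Transcripts of mitosis were scarce in both populations, and less scarce in the engrafted cells. Summed over the 21 mitosis members, the level was 106, 89.3, 88.5 and 112 CPM in the engrafted control libraries and 60.0, 53.4, 48.7 and 47.0 CPM in the host control libraries of the same mice. After LPS it was 91.7, 86.6, 79.4 and 92.5 CPM in engrafted cells and 37.8, 33.9, 35.0 and 34.8 CPM in host microglia. The engrafted library lay above the host library in 8 of 8 mice, and the populations did not overlap with or without LPS. These sums rest on 33 to 105 reads per engrafted and 25 to 61 reads per host library. Without Stmn1, a tubulin-binding protein that is not restricted to dividing cells, the sums were 88.4 ± 14.5 against 40.6 ± 6.45 CPM (SD, n = 4) in controls and 72.0 ± 12.8 against 25.8 ± 4.95 CPM after LPS. The median over the 21 genes of the mean level was 2.52 CPM, against 11.5 CPM over all genes with a read.

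Detection, which rests on the same reads as the sums, showed the same order. At the depth of the shallowest library, a median of 14.8 of the 21 mitosis members was expected with a read in engrafted control libraries and 10.6 in host control libraries, and 14.2 and 8.14 after LPS. The host range after LPS, 6.70 to 9.99 members, lay below the engrafted range of 12.0 to 15.0. No such count at equal depth was made over all genes. Whether engrafted libraries hold more genes of any kind at that depth was therefore not tested.

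**Figure D1:**
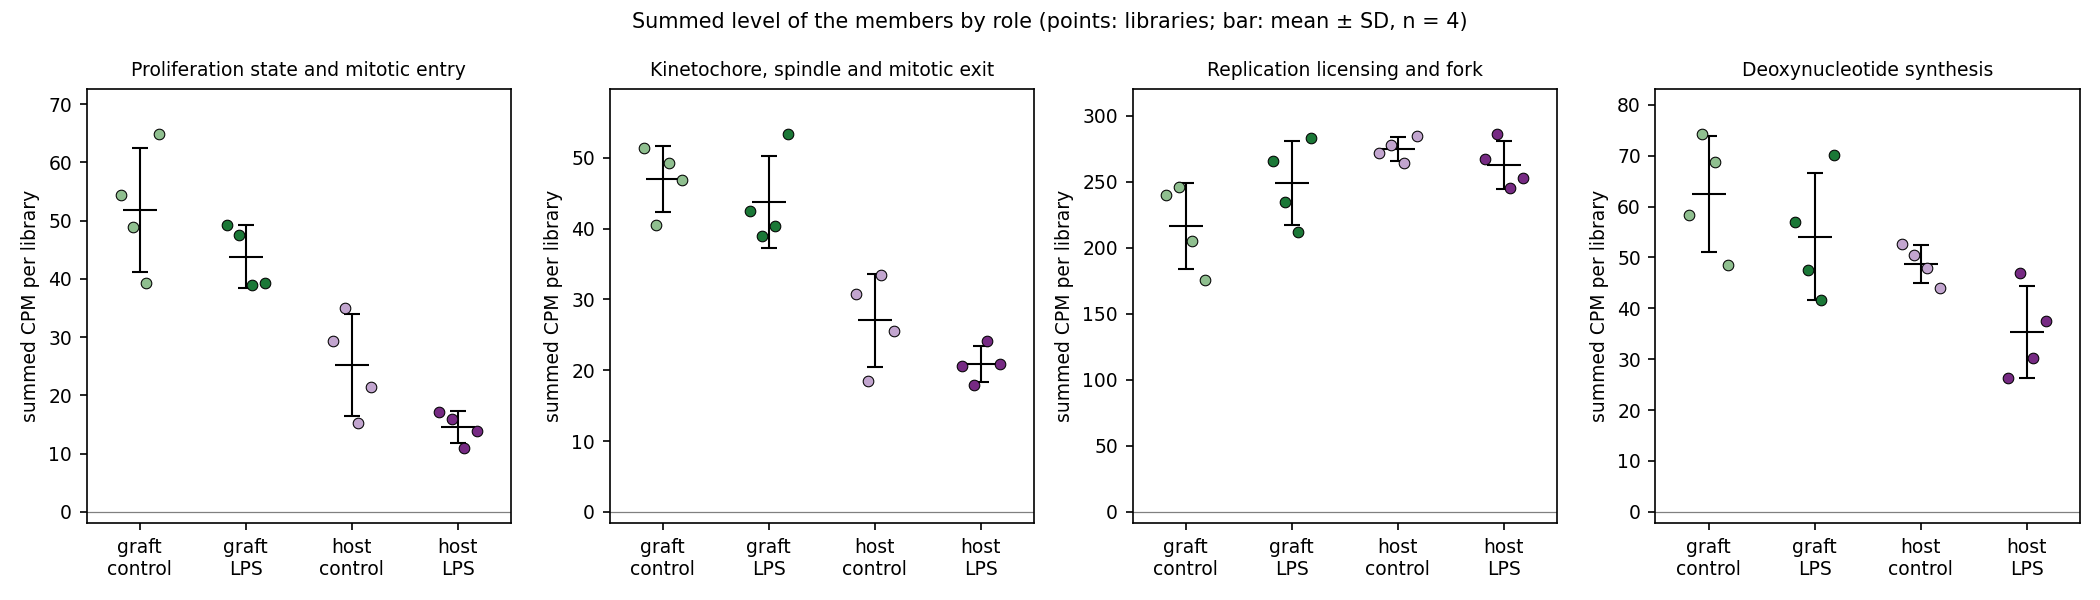
Summed CPM of the members of 4 roles (vertical axes, from 0) in each library, by group (horizontal axes); points are libraries and bars the mean ± SD of 4. Both mitotic roles are higher in engrafted than in host libraries with and without LPS. The replication genes are lower in engrafted than in host libraries without LPS and overlap between the populations after LPS.

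Mki67, the Ki-67 antigen that coats mitotic chromosomes, had 6, 8, 3 and 1 reads in the engrafted control libraries and 1, 4, 1 and 0 in the host. After LPS it had 6, 12, 5 and 1 reads in engrafted cells, a mean of 7.66 ± 4.98 CPM, and 0, 0, 1 and 0 reads in host microglia, 0.302 ± 0.604 CPM. The host libraries after LPS thus held 1 read of Mki67 among them. Top2a, the topoisomerase that untangles sister chromatids, had 14, 4, 4 and 5 reads in engrafted against 3, 4, 5 and 2 in host controls, and 5, 4, 3 and 1 against 0, 0, 1 and 1 after LPS. Ube2c, which carries ubiquitin for the anaphase-promoting complex, had 16, 1, 7 and 2 reads in engrafted controls, 2, 3, 4 and 6 in host controls, and 6, 7, 2 and 2 in engrafted cells after LPS. No read of it fell in any host library after LPS, which allows up to 2.99 to 4.17 CPM per library. Ccnb2, a B-type cyclin, had 7, 1, 5 and 4 reads in engrafted and 0, 1, 1 and 3 in host controls, and 15, 3, 6 and 0 against 1, 2, 0 and 2 after LPS.

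The edgeR quasi-likelihood test, whose p-values were adjusted over every gene tested (Benjamini-Hochberg), leaves out genes with too few reads, and that filter removed all 9 members of mitotic entry in every comparison, and of the 12 kinetochore and spindle members all but Stmn1, which was tested between the controls and in the interaction. In the same test without the filter, engrafted cells after LPS were higher than host microglia in Mki67 (adjusted p = 0.000128), Ube2c (adjusted p = 0.000303) and Ccnb2 (adjusted p = 0.0117), and Top2a reached an adjusted p of 0.0509. These are 3 of 21 mitosis members, against 7.57% of all genes that were higher in that fit, and nothing is read from so small a count. In a repeat chosen after seeing the data, which left out each of the 8 libraries in turn without the filter, Mki67 and Ube2c passed each time (adjusted p up to 0.0113 and 0.00458). Ccnb2 missed without engrafted LPS mouse 1 (adjusted p = 0.376) or host LPS mouse 3 (adjusted p = 0.0699), and Top2a passed without engrafted LPS mouse 4 (adjusted p = 0.0431). DESeq2 without the filter gave adjusted p-values of 0.00467 for Mki67, 0.00397 for Ube2c, 0.129 for Ccnb2 and 0.14 for Top2a.

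In controls 0 of the 21 passed without the filter in edgeR, against 17.7% of all genes, Ccnb2 having an adjusted p of 0.0922, Mki67 of 0.0969 and Top2a of 0.123. An unadjusted p below 0.05 was reached by these 3, Bub1b and Kif20a, that is, by 5 of 21 against 26.7% of all genes, a share near the background, with Kif20a being the lower one in engrafted cells, with no read in the 4 engrafted control libraries against 1, 3, 0 and 2 in the host. Within host microglia Ube2c was lower with LPS (adjusted p = 0.00354), 1 of 21 against 12.8% of all genes, and whether its LPS response differed between the populations did not pass the test (adjusted p = 0.0833). Within engrafted cells 0 mitosis members passed for LPS in edgeR without the filter, against 23.8% of all genes, and 0 had an unadjusted p below 0.05, against 33.1%.

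The other mitotic kinases and cyclins were at a few reads everywhere. Cdk1, the kinase of mitotic entry, had 3 to 9 reads per library in engrafted and 4 to 7 in host controls, and 2 to 5 against 2 or 3 after LPS. Ccnb1, its cyclin partner, had 5, 0, 0 and 0 reads in engrafted controls and 1, 1, 2 and 1 after LPS, and at most 1 read in a host library. Plk1 reached 12 reads in a host control library, its highest count, and Ccna2, Aurka and Aurkb stayed at 7 reads or fewer. Among the kinetochore and spindle genes, Birc5 (survivin) reached 11 reads in an engrafted control library, and Bub1b, a checkpoint kinase, had 2 to 7 reads per engrafted control library against 1 to 4 per host control library. Bub1, Cenpe, Cenpf, Kif11, Kif20a, Tpx2, Nusap1 and Cdc20 never exceeded 6 reads. Stmn1 had 2, 10, 5 and 8 reads in engrafted and 13, 4, 17 and 10 in host controls, and was not separated between them (log2 fold change -0.20, 95% interval -1.18 to 0.77).

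Genes of other cells also differed between the sorts. The 9 markers of neutrophils and granulocyte precursors (Elane, Mpo, Prtn3, Ctsg, Camp, Ngp, Ltf, S100a8 and S100a9), cells whose precursors divide in the marrow, summed to 198 to 1220 CPM in engrafted control and 30.5 to 479 CPM in engrafted LPS libraries, against 0 to 2.39 and 6.96 to 16.9 CPM in host libraries. Mpo and Ctsg had no read in engrafted controls, and Elane, Mpo, Prtn3, Ctsg and Ngp none in host controls. The engrafted library with the lowest sum of these markers, LPS mouse 2 at 30.5 CPM, had 86.6 CPM of mitosis members. The engrafted control library with the highest, mouse 7 at 1220 CPM, had 88.5 CPM. These libraries differ in treatment, and nothing is read from the pair. S100a9 had the highest mean of the 9 markers in engrafted cells, 237 CPM without and 116 CPM with LPS. The sum of the 9 markers mixes genes that moved in different directions with LPS. In engrafted cells the mean went from 1.97 to 20.5 CPM for Prtn3, from 0.819 to 3.64 CPM for Elane, from 0 to 2.29 CPM for Mpo and from 0 to 4.48 CPM for Ctsg. The means of Camp, Ngp, Ltf, S100a8 and S100a9 were lower with LPS. The 5 erythroid markers summed to 6130 CPM in the engrafted library of LPS mouse 4 and 4480 CPM in that of control mouse 8. The other engrafted libraries had 2.6 to 72 CPM of them, and the host libraries of these mice 4 and 8 had 779 and 710 CPM. The 4 monocyte markers (Ly6c2, Ccr2, Plac8 and Chil3) summed to 160 to 283 CPM in engrafted controls and 869 to 1860 CPM after LPS, against 5.73 to 23.5 CPM in host libraries. This sum mixes directions too. With LPS the engrafted mean rose from 30.1 to 716 CPM for Ly6c2, from 20.8 to 405 CPM for Plac8 and from 22.1 to 210 CPM for Chil3. That of Ccr2 fell from 155 to 46.2 CPM, without overlap. The part of these marker sets in the mitotic reads was not tested.

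The replication genes were present at higher reads in both populations and did not follow the mitotic ones. Summed over the 10 genes, engrafted cells had 217 ± 32.5 CPM and host microglia 275 ± 8.83 CPM in controls, and 249 ± 31.7 and 263 ± 18.0 CPM after LPS (SD, n = 4). In controls every engrafted library, at 176 to 246 CPM, lay below every host library, at 264 to 285 CPM, and after LPS the populations overlapped. Without LPS, 13 of 41 members could be tested between the populations, 2 were higher in engrafted cells and 1 lower, against 13.6% and 13.7% of all genes tested, and 0 were called in edgeR or DESeq2, meaning over 2-fold at an adjusted p below 0.05, against 11.0% of all.

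The 1 lower gene was Pcna, the sliding clamp of DNA polymerases, which is also used in DNA repair. It stood at 79.6, 75.9, 60.6 and 72.0 CPM in engrafted and 98.1, 129, 110 and 103 CPM in host controls. All engrafted control libraries lay below all host control libraries, and the difference was 1.47-fold (log2 fold change -0.55 ± 0.15 SE, edgeR adjusted p = 0.00625). With LPS, Pcna rose in engrafted cells to 115, 87.8, 98.9 and 129 CPM (log2 fold change 0.52 ± 0.19, adjusted p = 0.0389), whereas host microglia had 120, 156, 122 and 114 CPM (0.20 ± 0.16, adjusted p = 0.323). The rise in engrafted cells lost the threshold without LPS mouse 1 or any of the 4 control libraries, with adjusted p-values up to 0.111, and with all libraries kept under DESeq2 (0.0574) and scaling by library totals (0.082). The difference between the LPS responses was 0.30 (95% interval -0.16 to 0.76), which did not pass the test.

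Cdt1, which loads the MCM helicase onto origins in G1, was the replication gene with the largest LPS response. It went from 12.1, 5.06, 9.83 and 7.2 CPM in engrafted controls to 38.0, 35.4, 15.6 and 33.6 CPM after LPS, and from 14.6, 9.71, 16.7 and 14.3 to 24.1, 26.9, 21.7 and 26.4 CPM in host microglia. In both populations the LPS libraries lay above the controls. The rise was 3.27-fold in engrafted cells (log2 fold change 1.71 ± 0.38, adjusted p = 0.00128) and 1.77-fold in host microglia (0.82 ± 0.27, adjusted p = 0.0174), the latter falling to 0.67 (adjusted p = 0.0717) without host control mouse 6. The responses were not shown to differ (0.88, 95% interval -0.02 to 1.78). Cdc6, the other licensing factor, had at most 3 reads in a library.

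Of the helicase subunits, Mcm3 and Mcm5 were lower with LPS in host microglia. Mcm3 fell from 52.7, 45.6, 43.1 and 56.2 CPM to 32.1, 30.9, 29.0 and 40.3 CPM with LPS, with no overlap (log2 fold change -0.59 ± 0.20, adjusted p = 0.0219). Mcm5 fell from 20.5, 18.5, 16 and 24.5 CPM to 12.6, 13, 3.62 and 9.74 CPM, with no overlap (-0.99 ± 0.33, adjusted p = 0.022). Both rest on 3 to 55 reads per library. Mcm3 missed the threshold when any host LPS library but that of mouse 4, or host control mouse 5 or 8, was left out (adjusted p = 0.0501 to 0.0653). It also missed with all libraries under DESeq2 (0.0596), without the filter (0.0506) and in 1 fit of all 16 libraries (0.0686). Mcm5 missed without host LPS mouse 3 (-0.72, adjusted p = 0.0865) or host control mouse 8 (-0.87, adjusted p = 0.0699).

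In engrafted cells Mcm3 stood at 37.3, 50.6, 47.5 and 25.2 CPM without and 28.0, 30.5, 10.4 and 33.6 CPM with LPS, groups that overlap (-0.73 ± 0.33, adjusted p = 0.0838), and Mcm5 was not tested there. Mcm7 did not pass for LPS in engrafted cells (-0.47, 95% interval -1.01 to 0.06) or in host microglia (-0.44, 95% interval -0.88 to 0.00). Mcm6 was not separated by LPS either, at -0.43 (95% interval -1.09 to 0.22) in engrafted cells and 0.60 (95% interval -0.05 to 1.24) in host microglia. Mcm4 was tested only for the difference of the responses, Mcm2 had 2 to 16 reads per library and passed no filter, and Gins2, a subunit of the replicative helicase complex, ranged from 9.71 to 20.1 CPM over all 16 libraries with no test passed.

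**Figure D2:**
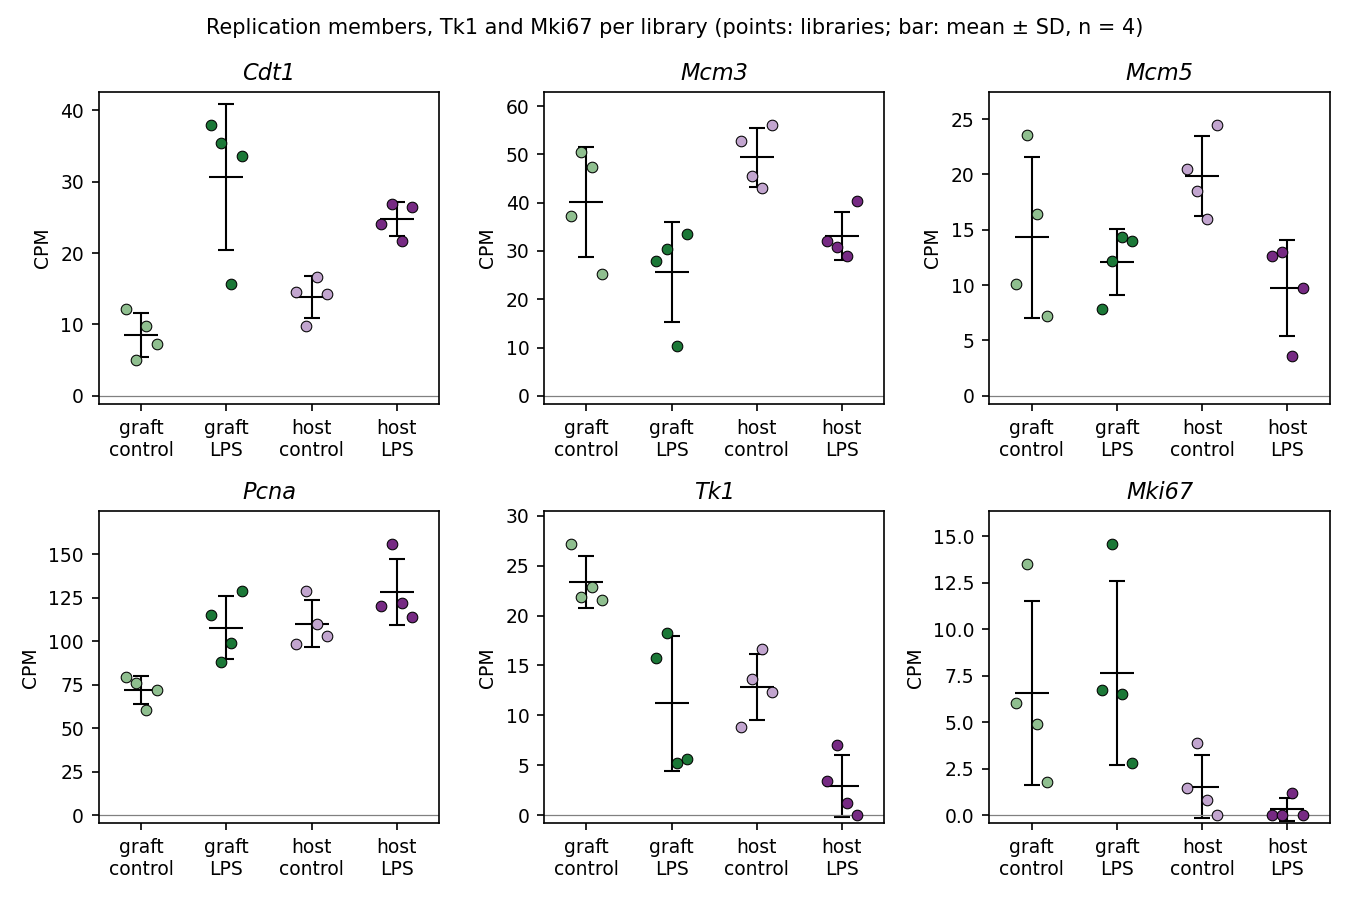
CPM of Cdt1, Mcm3, Mcm5, Pcna, Tk1 and Mki67 (vertical axes) in each library, by group (horizontal axes); points are libraries and bars the mean ± SD of 4, which for Mki67 and Tk1 run below 0 in places. Cdt1 is higher with LPS in both populations, Mcm3 and Mcm5 are lower with LPS in host microglia, and Mki67 has 1 read in all host LPS libraries together.

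Among the genes of deoxynucleotide synthesis, the salvage enzyme Tk1 was the one that changed. Its level was 27.2, 21.9, 22.9 and 21.6 CPM in engrafted controls against 8.78, 13.6, 16.7 and 12.3 CPM in host controls, without overlap (log2 fold change 0.89 ± 0.30, adjusted p = 0.0265). After LPS it was 15.7, 18.3, 5.20 and 5.61 CPM in engrafted cells and 3.44, 6.98, 1.21 and 0 CPM in host microglia, so that in both populations every LPS library lay below every control. In engrafted cells the fall was 2.01-fold (-1.01 ± 0.37, adjusted p = 0.0357). In host microglia the filter removed Tk1, and the test without the filter gave an adjusted p of 0.000511 at means of 2.91 against 12.9 CPM. Between the populations after LPS the libraries overlapped, and the test without the filter gave an adjusted p of 0.00881. The LPS responses were not shown to differ (1.00, 95% interval -0.30 to 2.30).

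The Tk1 calls were fragile. Between control populations its adjusted p rose to between 0.0542 and 0.084 without engrafted mouse 5 or host mouse 5, 6 or 8, and in engrafted cells to between 0.0579 and 0.122 without LPS mouse 3 or 4 or any of the control libraries. With all libraries kept, the difference between controls missed under DESeq2 (0.0623), without the filter (0.0675) and in 1 fit of all 16 libraries (0.0982), and the fall in engrafted cells under DESeq2 (0.0561) and without the filter (0.0644). Rrm2, the S phase subunit of ribonucleotide reductase, had 2, 2, 2 and 0 reads in engrafted controls and none in the 4 host control libraries, which allows up to 2.39 to 4.39 CPM there. Its partner Rrm1, which resting cells also hold, ranged from 10.3 to 28.0 CPM and differed in no comparison. Tyms, thymidylate synthase, was at 2.80 to 15.0 CPM. Dut, which removes dUTP, passed only in the test without the filter, higher in engrafted cells after LPS at 12.3, 11.0, 16.9 and 28.0 against 3.44, 7.98, 6.04 and 6.96 CPM (adjusted p = 0.0304).

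The D-type cyclins, the G1 partners of CDK4 and CDK6, carried some of the largest changes of the set, and LPS changed each of the 3 in at least 1 population. Ccnd3 stood at 61.4, 62.4, 57.3 and 37.8 CPM in engrafted controls and at 294, 170, 202 and 205 CPM in engrafted cells after LPS. In host microglia it was at 71.7, 53.4, 59.0 and 95 CPM without and 68.8, 51.8, 77.3 and 102 CPM with LPS. The engrafted LPS libraries stood above all 12 others, which overlapped with each other. The rise in engrafted cells was 3.83-fold (log2 fold change 1.94 ± 0.21, adjusted p = 6.55e-07) and the host change was 0.08 (95% interval -0.35 to 0.51, adjusted p = 0.799). Of the 15 members tested for it, Ccnd3 was the only 1 whose LPS response differed between the populations (log2 difference 1.85 ± 0.32, adjusted p = 0.000404). This compares with 5.88% of all genes tested and 4.95% with an over 2-fold difference, a share near the background. With LPS it was also the only member called between the populations, 2.97-fold higher in engrafted cells (1.57 ± 0.23, adjusted p = 6.79e-05). In that comparison 11 members were tested, 1 was higher and 0 lower (1 at an unadjusted p below 0.05), against 9.52% and 7.62% of all genes, and 11.1% of all were called.

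Ccnd1 fell with LPS in both. It stood at 241, 261, 247 and 230 CPM in engrafted controls and at 82.8, 80.5, 129 and 101 CPM after LPS, a 2.57-fold fall with no overlap (log2 fold change -1.36 ± 0.19, adjusted p = 8.06e-06). In host microglia it went from 288, 294, 321 and 240 CPM to 164, 87.7, 212 and 214 CPM, again with no overlap (-0.77 ± 0.20, adjusted p = 0.00441). The difference between the responses was -0.60 (95% interval -1.20 to -0.01, adjusted p = 0.276), and after LPS the populations differed by -0.77 (adjusted p = 0.0531). That last comparison depended on the processing and on single libraries. It passed without the filter (adjusted p = 0.00587), in 1 fit of all 16 libraries (0.0116), with scaling by library totals (0.0251), without host LPS mouse 2 (0.00339) and without engrafted LPS mouse 3 (0.04). The difference of the responses passed without host LPS mouse 2 (-0.83, adjusted p = 0.046). With the mouse as a replicate block, the populations differed after LPS by -0.70 (adjusted p = 0.0146).

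Ccnd2 rose with LPS in both. It stood at 92.2, 62.2, 98.1 and 78.6 CPM in host controls and at 255, 240, 254 and 174 CPM after LPS, a 2.77-fold rise (log2 fold change 1.47 ± 0.17, adjusted p = 6.8e-07). In engrafted cells it went from 94.7, 116, 116 and 104 CPM to 247, 231, 182 and 98.1 CPM, where the lowest LPS library, that of the shallowest sample, lay within the control range (0.80 ± 0.22, adjusted p = 0.0062). The responses were not shown to differ (-0.67, 95% interval -1.25 to -0.10, adjusted p = 0.193). In controls Ccnd2 was 1.35-fold higher in engrafted cells (0.43 ± 0.16, adjusted p = 0.0412), with overlapping libraries, and this passed in 5 of 14 alternatives. It missed without engrafted mouse 6, 7 or 8 or host mouse 6 or 8 (adjusted p = 0.0759 to 0.171), and with all libraries under scaling by totals (0.109), DESeq2 (0.0908), without the filter (0.105) and in 1 fit (0.175).

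**Figure D3:**
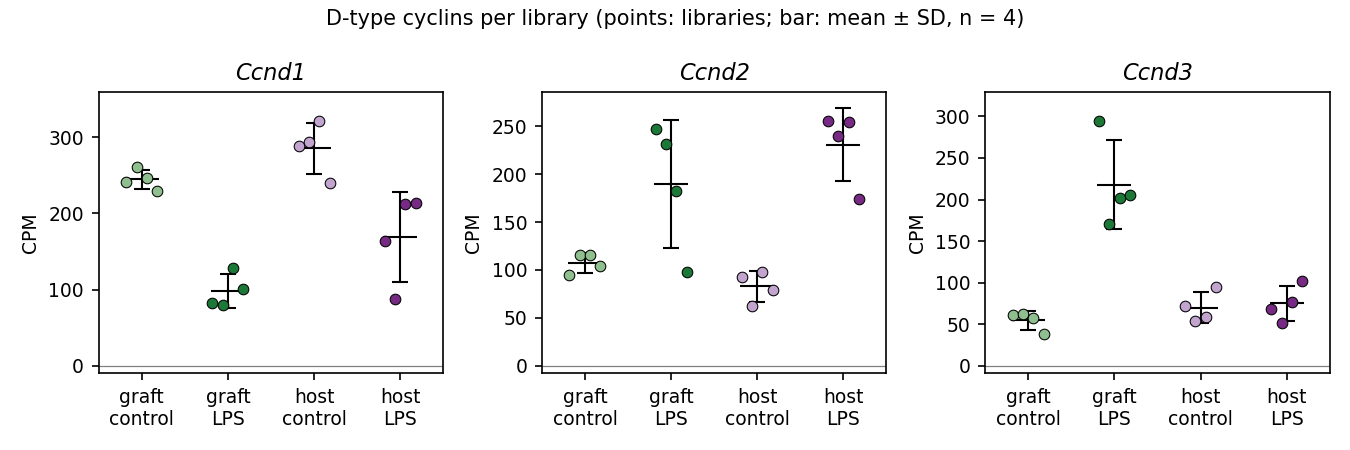
CPM of Ccnd1, Ccnd2 and Ccnd3 (vertical axes, from 0) in each library, by group (horizontal axes); points are libraries and bars the mean ± SD of 4. Ccnd1 falls and Ccnd2 rises with LPS in both populations, while Ccnd3 rises only in the engrafted libraries, to between 170 and 294 CPM.

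Ccne1, the cyclin that starts S phase, had 0 to 7 reads per library. E2f1, the S phase transcription factor, had 3, 11, 4 and 3 reads in engrafted and 3, 5, 4 and 3 in host controls, and 2, 4, 4 and 1 against 1, 0, 0 and 1 after LPS. Neither passed the filter, and in the test without it E2f1 gave an adjusted p of 0.101 between the populations after LPS.

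Counted over the set, LPS raised 4 and lowered 2 of the 11 members tested in engrafted cells, against 19.4% and 19.3% of all genes tested, and 4 were called (Ccnd3, Cdt1, Ccnd1 and Tk1) against 21.5%. In host microglia 2 rose and 3 fell of 12 tested, against 19.2% and 20.5% of all genes, and 1 was called (Ccnd2) against 18.0%. The members tested are those with the most reads, so these counts do not describe the 25 members that passed no filter. With 10 members tested for LPS in both populations, Ccnd1 passed as lower and Ccnd2 and Cdt1 as higher in both. The share of all genes that passed in both was not counted, so nothing is read from that number. The sum of the monocyte markers given above was also higher in every engrafted LPS library than in any engrafted control library. Ccr2, 1 of these markers, went the other way, at 31.7 to 62.5 CPM with LPS against 84.6 to 227 CPM without. The part of the monocyte markers in the changes of Ccnd3 and Cdt1 was not tested.

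**Figure D4:**
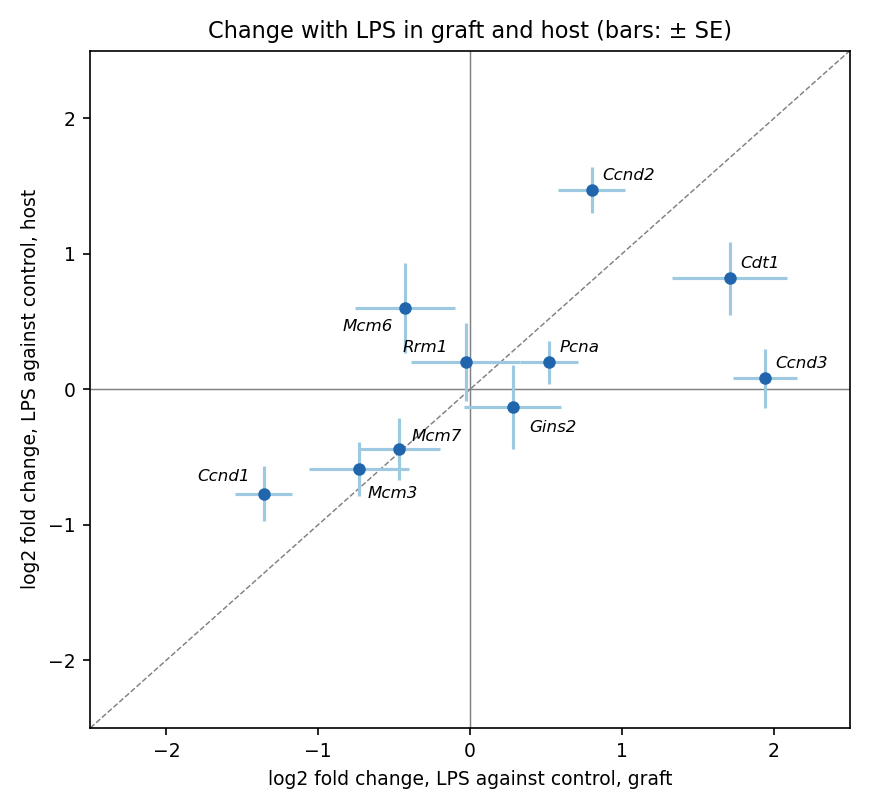
Log2 fold change with LPS in engrafted cells (horizontal axis, labelled graft) and in host microglia (vertical axis) for the 10 members tested in both; bars are standard errors and the dashed line marks equal change. Ccnd3 stands farthest from the line, at 1.94 in engrafted cells and 0.08 in host microglia.

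A further list of 24 genes held CDK inhibitors, pocket proteins and antiproliferative genes, and also the MuvB subunits Lin9, Lin37, Lin52 and Lin54. Without LPS 2 of the 15 tested were higher and 5 lower in engrafted cells, against 13.6% and 13.7% of all genes. Cdkn1a, which encodes the CDK inhibitor p21, a target of p53, ranged from 118 to 162 CPM in engrafted and from 1190 to 2040 CPM in host controls, a 10.9-fold difference (log2 fold change -3.44 ± 0.16, adjusted p = 8.75e-15). With LPS it rose in engrafted cells to 847 to 1100 CPM (2.75 ± 0.19, adjusted p = 9.26e-10), while host microglia had 1240 to 1830 CPM, and the responses differed by 2.94 ± 0.26 (adjusted p = 1.81e-08). The p53 targets Ccng1 (-1.47, adjusted p = 4.66e-05) and Gadd45a (-1.71, adjusted p = 0.00309) were likewise lower in engrafted controls. The response of Gadd45a to LPS was greater in engrafted cells (2.40, adjusted p = 0.00919). Cdkn2a, the locus of p16 and p19ARF, did not pass the filter and stood at 1.01 ± 2.01 CPM in engrafted and 12.4 ± 5.31 CPM in host controls (adjusted p = 0.000111 without the filter). The transcriptional repressor E2f5 was higher in engrafted controls (1.15, adjusted p = 0.00716), and without control mouse 7 of the engrafted group its adjusted p was 0.0516.

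After LPS 1 of 15 tested genes of this list differed between the populations, Ccng1 (-0.90, adjusted p = 0.00777), against 7.62% of all genes that were lower. LPS raised 2 and lowered 7 of 14 tested in engrafted cells, against 19.4% and 19.3% of all genes. In host microglia it raised 0 of 18 (0 at an unadjusted p below 0.05) and lowered 4, against 19.2% and 20.5% of all. Ccng2, a cyclin linked to cell cycle arrest, fell in both (-1.72, adjusted p = 2.45e-05 in engrafted cells, and -1.94, adjusted p = 1.74e-07 in host microglia), and the retinoblastoma gene Rb1 fell in engrafted cells (-1.27, adjusted p = 0.00544) and in host microglia (-0.83, adjusted p = 0.0309), the latter missing under DESeq2 (0.0523) and without host LPS mouse 1 or 3 or host control mouse 5, 6 or 7 (0.0522 to 0.121). Trp53, which encodes p53, fell in host microglia by 1.20 on the log2 scale (adjusted p = 0.00316), with overlapping libraries. Of the 13 CDKs and their activators, Cdk6 was lower in engrafted than in host controls (-1.53 ± 0.15, adjusted p = 1.41e-08), at 63.5 to 78.6 against 164 to 236 CPM. The CDK-activating factor Mnat1 was higher (0.81, adjusted p = 0.00847). Myc rose with LPS in host microglia (0.86, adjusted p = 0.00548).

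Of 40 further mitosis genes, 10 were tested between controls, with 2 higher and 3 lower in engrafted cells, against 13.6% and 13.7% of all genes. The condensin subunit Smc4 was 4.43-fold higher (log2 fold change 2.15 ± 0.39, adjusted p = 0.000124), at 14.1 to 40.5 against 5.11 to 8.78 CPM. The centromeric histone Cenpa was higher at 17.4 ± 2.13 against 7.69 ± 2.83 CPM (1.20, adjusted p = 0.0134), and after LPS it was at 18.1 ± 14.9 against 0.846 ± 1.01 CPM, so that the responses differed (3.09 ± 0.91, adjusted p = 0.0418). The difference in controls missed without host control mouse 6 (0.97, adjusted p = 0.0666) and in 1 fit of all 16 libraries (1.19, adjusted p = 0.0727). That of the responses passed in 9 of 21 alternatives and missed without engrafted LPS mouse 1 (2.48, adjusted p = 0.121) or 2, host LPS mouse 1, 3 or 4, any engrafted control library, or host control mouse 5, 7 or 8. The tubulins Tubb5 (-0.77, adjusted p = 0.000271) and Tuba1b (-0.41, adjusted p = 0.015), which are not confined to mitosis, were lower in engrafted controls and rose with LPS in engrafted cells (0.75, adjusted p = 0.00288, and 0.78, adjusted p = 0.00197). The condensin subunit Ncaph was the third lower gene in engrafted controls (-0.72, adjusted p = 0.0431), which passed in 5 of 14 alternatives and missed without engrafted mouse 5 or 6 or any host control library (0.0549 to 0.162), under DESeq2 (0.109), in 1 fit (0.0841) and with the mouse as a replicate block (0.0729). Ncaph and the separase gene Espl1 fell with LPS in both populations. For Ncaph the fall was from 18.4 ± 3.1 to 2.36 ± 2.41 CPM in engrafted cells (adjusted p = 0.000105) and from 30.9 ± 2.57 to 5.97 ± 1.63 CPM in host microglia (adjusted p = 1.51e-06). Espl1 fell by 1.57 (adjusted p = 0.000642) and by 1.35 (adjusted p = 0.000351) on the log2 scale.

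Of 39 further replication genes, 12 were tested between controls and 0 changed in edgeR, against 13.6% higher and 13.7% lower among all genes, 1 of them, Pold1, having an unadjusted p below 0.05 (0.0461). After LPS 1 of 14 differed, the activator E2f2, at 22.5 ± 7.54 CPM in the engrafted and 6.18 ± 4.90 CPM in the host libraries (log2 fold change 2.00 ± 0.45, adjusted p = 0.00389), against 9.52% of all genes that were higher. LPS lowered 3 of 13 in engrafted cells, against 19.3% of all genes, among them the clamp loader subunit Rfc3 (-1.19, adjusted p = 0.00432), and raised 0 (0 at an unadjusted p below 0.05). In host microglia it raised 2 of 14, the flap endonuclease Fen1 (0.77, adjusted p = 0.0339) and Gins1 (0.94, adjusted p = 0.0345), and lowered 1, Rfc2 (-0.58, adjusted p = 0.0338), against 19.2% and 20.5% of all genes. Under DESeq2 these had adjusted p-values of 0.0591, 0.0767 and 0.0593. Fen1 missed without host LPS mouse 1 or 2 or host control mouse 5, 6 or 7 (adjusted p up to 0.139). Gins1 missed without host LPS mouse 1 or 4 or host control mouse 5, 6 or 8 (up to 0.117), and Rfc2 without host LPS mouse 1, 2 or 3 or host control mouse 6 or 8 (up to 0.166).

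**Figure D5:**
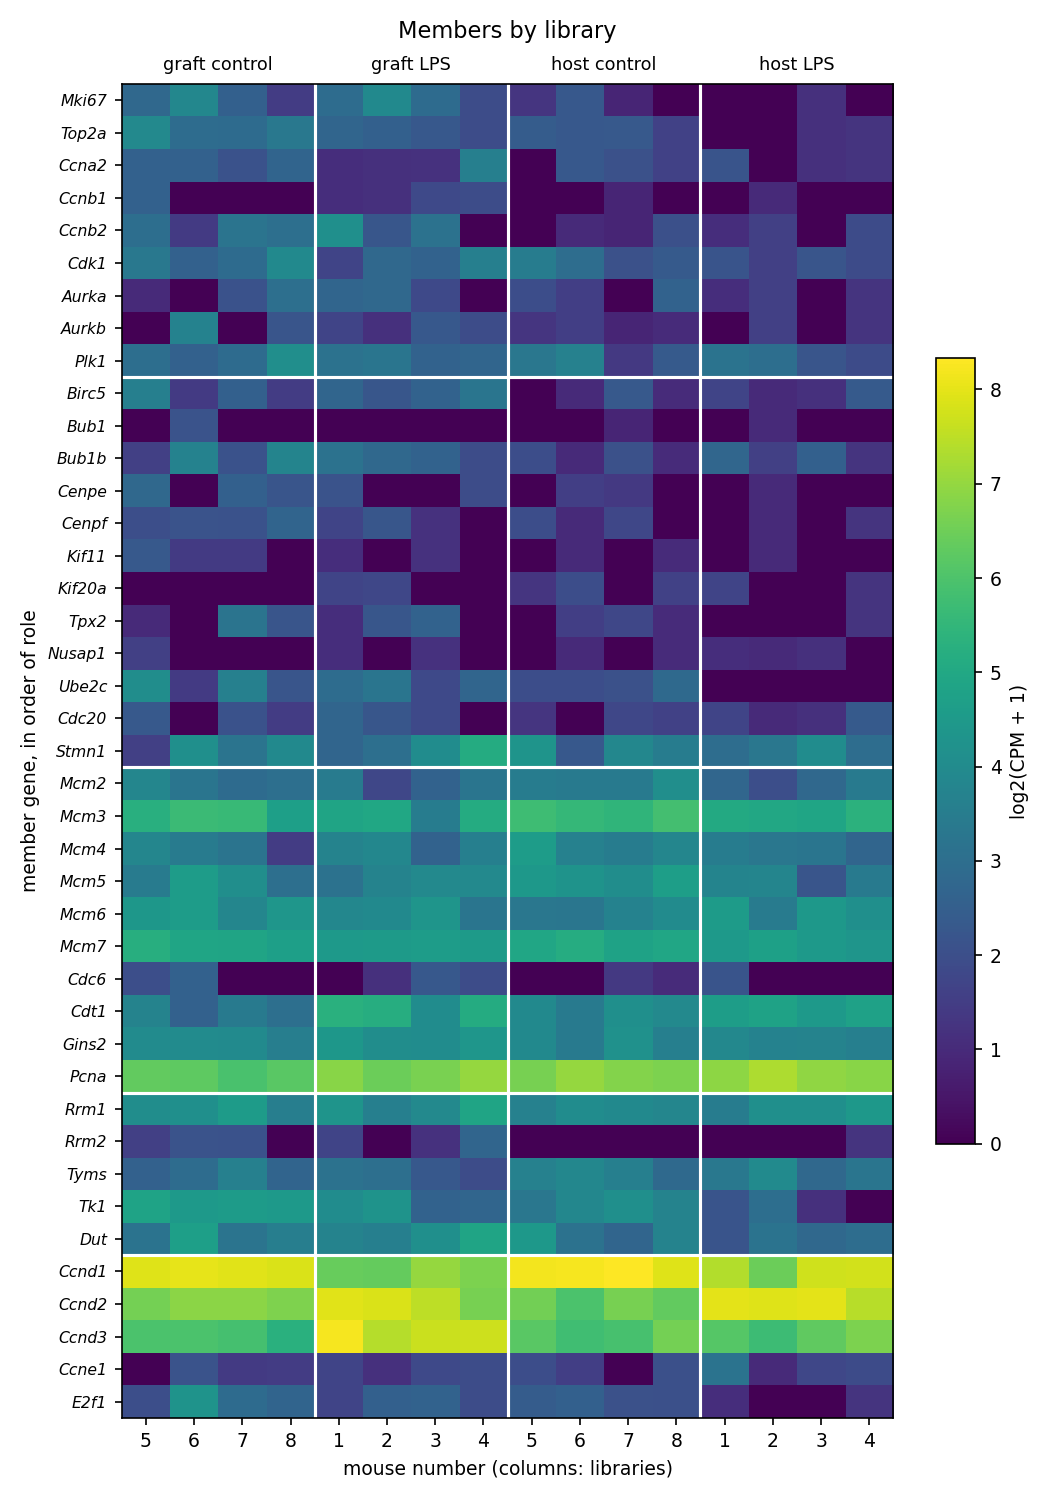
Level of the 41 members in the 16 libraries as log2(CPM + 1), with genes as rows in order of role and libraries as columns by group and mouse; colours compare libraries within a row, since CPM are not corrected for gene length. The rows of Mki67, Top2a and Ube2c are darkest in the host LPS columns, and the rows of Ccnd1, Ccnd2 and Ccnd3 are bright in all groups.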

How the data were processed

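RNA of 16 libraries (8 mice, 2 populations each) was sequenced after a derivation of MARS-seq, which captures polyadenylated RNA at its 3′ end. Values deposited by the authors are counts of raw reads: unique alignments to mm9 by HISAT (0.1.6 in the methods, 0.1.5 in the submitters' processing notes), which HOMER assigned to the exons of a gene in sense orientation, with 1 RefSeq model for each gene and no normalization. No removal of PCR duplicates is named in the sources used here, so limits of detection cover counting error only. The assignment of libraries to sequencing pools is not given there either.

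Groups came from the sample titles. Counts were analysed in R 4.3.3 with edgeR 4.0.16: genes kept by filterByExpr (count of at least 10, total of at least 15), TMM scaling, quasi-likelihood tests with prior count 0.125, and Benjamini-Hochberg adjustment over every gene kept. A gene counted as changed at an adjusted p below 0.05 and as called if it also exceeded a 2-fold change. Standard errors follow from each log2 fold change and the square root of F, and 95% intervals span 1.96 standard errors on either side. Each of the 4 pairwise comparisons was fitted on its 8 libraries, and the interaction on all 16.

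The members, gene lists and tests were chosen with earlier results of these data known. Genes named are the 41 members, the genes of 4 further cell cycle lists with the largest changes past the threshold (up to 4 per list and comparison), genes that the test without the filter passed, and cell type markers, of which 1 for monocytes is not reported here. Both populations came from the same mouse, so mice pair them. After removing group means, Pearson's r between both libraries of a mouse was -0.0298 to 0.21 over 8847 genes, against means of -0.0629 to 0.00801 with other mice. The study's methods name no mouse term, so the pairing entered as an alternative. Further alternatives were RLE size factors, scaling by totals, DESeq2 1.42.0, no filter on low counts, 1 fit of all libraries, and leaving out each library. Leaving out each library without the filter, and DESeq2 without the filter, were added for 4 mitosis genes after seeing the data. The main edgeR test was run first on simulated data with known changes, for the comparison of the control populations and for the interaction. The other comparisons and the alternatives were not run on such data.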

Additional observations from a re-analysis of the deposited data

Results flagged for a closer look

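Of 84 groups of 4 libraries examined, 1 library stood apart from the other 3 in 2, where chance alone gives about 1 in 20. Gins2 was at 10.8 CPM in the engrafted library of control mouse 8, against 14.7 to 15.2 CPM in the others. Dut was at 25.3 CPM in the engrafted library of control mouse 6, against 8.06 to 10.8 CPM in the others.

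The LPS response differed between engrafted cells and host microglia, by edgeR's interaction test, in 4 genes of the lists examined. The log2 difference was 1.85 for Ccnd3 (adjusted p = 0.000404, 1.17e-08 to 0.00224 over 21 alternatives). It was 2.94 for Cdkn1a (adjusted p = 1.81e-08) and 2.40 for Gadd45a (adjusted p = 0.00919), both past the threshold under all 21. It was 3.09 for Cenpa (adjusted p = 0.0418), which passed in 9 of 21, with adjusted p-values up to 0.121.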

How the results depend on the processing

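Between control populations, 3 members changed, and 1 with DESeq2, without the filter or in 1 fit of all 16 libraries. Leaving out a library gave 0 to 1 called and 1 to 3 changed. After LPS, 1 member changed and was called between the populations. Without the filter 6 were called and 7 changed, in 1 fit of all libraries 2 and 3, and scaling by totals gave 2 changed. With the mouse as a replicate block 2 changed after LPS (Ccnd1 and Ccnd3), and the block altered no other count. Leaving out a library gave 1 to 2 changed there, and 1 to 2 in the interaction. For LPS in host microglia 1 was called, 2 with DESeq2, 3 without the filter and 2 in 1 fit, and leaving out a library gave 1 to 3 called (Tk1 or Mcm5 joining Ccnd2) and 3 to 6 changed. The host response of Ccnd3, 0.08 on the log2 scale, ran from -0.09 to 0.27 when a library was left out. The responses of Ccnd3 and Ccnd1 to LPS in engrafted cells, of Ccnd1 and Ccnd2 in host microglia, and the interaction of Ccnd3 kept direction and side of the threshold under every alternative run. The summed levels by role moved by less than 1 SD of their group under scaling by library totals, RLE size factors and leaving out a library. Counting members with any read instead of more than 3 raised the median per library from 16.5 to 31 in host LPS libraries and from 24 to 37 in engrafted ones. Where a count moved, the cause was not tested, except that dropping the filter adds genes by construction. At 3 reads or fewer per library, presence cannot be told from absence.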
